A study of Mus musculus with 6 samples.

Results

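Krüppel-like factors are transcription factors that bind GC-rich and CACCC sequences in promoters through 3 zinc fingers at the end of the protein. Outside the fingers the family falls into subgroups that recruit different partners. Klf3, Klf8 and Klf12 bind the CtBP corepressors, Klf2, Klf4, Klf5, Klf6 and Klf7 mostly activate transcription through acetyltransferases, and Klf9, Klf10, Klf11, Klf13 and Klf16 bind the Sin3 corepressor complex. In neurons of mice the family is known for its effects on neurite growth, which Klf6 and Klf7 promote and Klf4 and Klf9 hold back, and Klf9 and Klf15 are known as genes induced by glucocorticoids.

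The genes described are Klf2, Klf3, Klf4, Klf5, Klf6, Klf7, Klf9, Klf10, Klf13 and Klf15, 10 of the 55536 genes counted, chosen by name as members of this family. Reads per gene were counted in 6 mRNA libraries of CAD cells, an established line with catecholaminergic traits from the mouse central nervous system, labelled as male, of strain C57BL/6 x DBA/2 and transformed by Simian virus 40. The 3 dexamethasone libraries came from cells kept for 5 days with 100 µM dexamethasone, a synthetic glucocorticoid, in medium with 1% fetal bovine serum. The 3 undifferentiated libraries came from proliferating control cells in medium with 8% serum. Steroid and serum changed together, so their parts cannot be told apart, and all 6 libraries come from the same line, which limits it as a model of neurons. The labels call the samples independent without saying whether they were separate cultures, and a p-value here therefore reflects sample-to-sample spread that could be technical only.

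The counts summed to between 6411105 and 8757992 reads per library, and the libraries correlated at 0.9915 to 0.9932 within groups and at 0.8575 to 0.8634 between groups (Pearson's r of log2 values across genes, which are not independent replicates). All 12 markers of catecholaminergic neurons that were looked at passed the filter on low counts. Of these, 5 were higher and 6 lower in dexamethasone cells, among them Snap25 (2.52-fold higher) and Dbh (13.2-fold lower). The shares over all tested genes were 40.3% higher and 38.6% lower. Summed over each list, astrocyte markers took 58.5 to 61.7 CPM (reads divided by library size, on the usual per-million scale) in dexamethasone libraries against 4.95 to 6.88 CPM in undifferentiated libraries, mostly from Aldoc, and endothelial markers took 33.4 to 35.7 CPM against 18.3 to 21.3 CPM. Of the 7 endothelial markers, Pecam1 alone made up most of the sum, at 33.1 ± 0.882 CPM in dexamethasone and 19.5 ± 1.30 CPM in undifferentiated cells (SD, n = 3 each). Tie1, Cldn5 and Emcn had no read in any library. Fibroblast markers took 94.6 to 95.8 CPM in dexamethasone libraries against 280 to 303 CPM in undifferentiated libraries, with Col3a1 at 0. Fbln1 made up most of both sums, at 72.5 ± 0.489 CPM in dexamethasone and 278 ± 10.3 CPM in undifferentiated cells (SD, n = 3 each). Fbln1 was lower in dexamethasone cells while Dcn and Thy1 were higher. Oligodendrocyte and Schwann markers took 2.53 to 4.36 CPM against 2.97 to 4.22 CPM, with Mog, Sox10 and Olig2 at 0, and microglial and blood markers reached at most 0.149 CPM against 0.565 CPM, with Ptprc, Cx3cr1, Itgam and Hba-a1 at 0. The part of these marker shifts in the Klf results was not tested. In bulk RNA, fewer cells that express a gene and less RNA of it per cell cannot be told apart.

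Because the members resemble each other most in their fingers, the sequences that code for the last finger, up to its last histidine codon, are shown for the 6 members with enough reads to test and for Klf13, the member with fingers closest to those of Klf9. The lines are coding-strand bases of GENCODE M21 transcripts, 69 for each gene, and capitals mark the 20 bases that are identical in all 10 members.
Klf3: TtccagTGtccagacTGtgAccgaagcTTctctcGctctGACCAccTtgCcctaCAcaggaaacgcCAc
Klf5: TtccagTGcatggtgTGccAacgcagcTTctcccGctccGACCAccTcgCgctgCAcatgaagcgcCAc
Klf6: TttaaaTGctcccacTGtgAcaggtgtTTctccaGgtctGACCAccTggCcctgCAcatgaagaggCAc
Klf7: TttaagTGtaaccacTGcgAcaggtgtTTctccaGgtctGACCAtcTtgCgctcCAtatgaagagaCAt
Klf9: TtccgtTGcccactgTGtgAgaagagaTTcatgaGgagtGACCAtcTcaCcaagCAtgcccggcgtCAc
Klf10: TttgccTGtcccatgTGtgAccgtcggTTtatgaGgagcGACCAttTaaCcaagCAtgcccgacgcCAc
Klf13: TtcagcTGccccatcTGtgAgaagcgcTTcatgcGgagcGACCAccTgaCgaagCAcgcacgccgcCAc
Over the whole run that codes for the 3 fingers, 243 bases, Klf6 and Klf7 were identical at 81.1% of positions, Klf9 and Klf13 at 72.8%, and Klf9 and Klf7 at 57.2%. Despite this likeness, no window of 75 bases, the length of the sequenced reads, was shared between transcripts of any pair of members. Only Klf3 had a window in common with the same strand of another gene, 1 of 11530. Klf7 shares 3058 of 8128 windows with Gm26649 on the opposite strand, and Gm26649 itself collected 6 reads in dexamethasone and 8 in undifferentiated libraries. Counting was by strand, so reads of this pair are separable as far as the library preparation kept the strand.

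Promoters are shown for Klf9 and Klf3, the genes with the largest rises among the members, and for Klf6, the most abundant member per length. They are RefSeq windows of build GRCm38.p6 from 250 bases before to 50 bases after the start, in which capitals mark the GC box GGGCGG, the CACCC box CCACCC and the E-box CACGTG on either strand.
Klf9, chr19:23140976-23141275, plus strand: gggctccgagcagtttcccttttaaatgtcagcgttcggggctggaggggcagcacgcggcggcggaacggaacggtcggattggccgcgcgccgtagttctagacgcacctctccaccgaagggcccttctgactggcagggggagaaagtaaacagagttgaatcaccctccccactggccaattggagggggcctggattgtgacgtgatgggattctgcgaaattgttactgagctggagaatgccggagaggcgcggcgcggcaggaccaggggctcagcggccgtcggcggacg
Klf3, chr5:64803271-64803570, plus strand: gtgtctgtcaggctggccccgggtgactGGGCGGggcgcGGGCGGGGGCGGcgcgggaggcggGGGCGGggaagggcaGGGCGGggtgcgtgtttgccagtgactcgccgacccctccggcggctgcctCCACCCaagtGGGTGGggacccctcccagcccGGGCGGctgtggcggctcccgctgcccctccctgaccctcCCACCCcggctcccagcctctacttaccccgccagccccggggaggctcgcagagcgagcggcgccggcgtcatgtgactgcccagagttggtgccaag
Klf6, chr13:5861239-5861538, plus strand: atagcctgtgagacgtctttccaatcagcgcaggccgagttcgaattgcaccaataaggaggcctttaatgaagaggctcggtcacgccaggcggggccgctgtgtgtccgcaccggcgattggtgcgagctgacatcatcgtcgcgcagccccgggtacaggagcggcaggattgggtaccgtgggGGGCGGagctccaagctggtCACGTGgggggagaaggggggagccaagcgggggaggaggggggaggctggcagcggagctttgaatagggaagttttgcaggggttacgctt
The Klf9 window held no GC box, no CACCC box and no E-box and had 3 CCAAT sequences, a pair of which overlap on opposite strands. The Klf3 window held 6 GC boxes and 3 CACCC boxes, and that of Klf6 held 1 GC box, 1 E-box and 4 CCAAT sequences. Of the 10 members, 8 had a window in the table, and 7 of these held a GC box, which is present in 35.7% of all 32851 windows of the same length. The 8 windows were 58.3% to 76.7% G and C, against a median of 52.7% over all windows. The part of this base composition in the motif counts was not tested. Klf15 held 3 E-boxes, Klf4 and Klf6 held 1 each, and 7.15% of all windows held any. The palindromic glucocorticoid response element and its shorter part TGTTCT, searched on both strands, were in none of the 8 windows and in 0.00913% and 19.0% of all windows. The shorter motif lies inside the full element. A match is a string of letters in this window and not a measured binding site, and its absence says nothing about the receptor.

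Of the 10 members, 6 passed the filter on low counts, and 4 of these (Klf3, Klf5, Klf6 and Klf9) were called higher in dexamethasone cells and 0 lower. Calls are from edgeR's quasi-likelihood test with Benjamini-Hochberg adjustment over all 12664 tested genes, and at an unadjusted p under 0.05 the count of lower members was also 0, as it was with DESeq2 and limma voom. By the same rule 40.3% of all tested genes were higher and 38.6% lower, 78.9% together, so a call by itself does not set a member apart in these libraries. The median log2 fold change of the 6 members was 0.67, against 0.017 over all tested genes, whose quartiles were -0.55 and 0.69. The members were chosen with earlier results of these data known, so these counts and this median describe the chosen genes only. The 3 tested Klf genes outside this choice had a median of 0.39, with 1 called higher (Klf11) and 1 lower (Klf16). Klf9, Klf3 and Klf5 lay above the upper quartile and were called with a fold of at least 2, as were 17.8% of all tested genes. In the same 4 members all dexamethasone libraries lay above all undifferentiated ones, as in 41.0% of tested genes, and in none did all lie below, as in 38.9%. The remaining 4 members, Klf2, Klf4, Klf13 and Klf15, had too few reads or none.

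**Figure D1:**
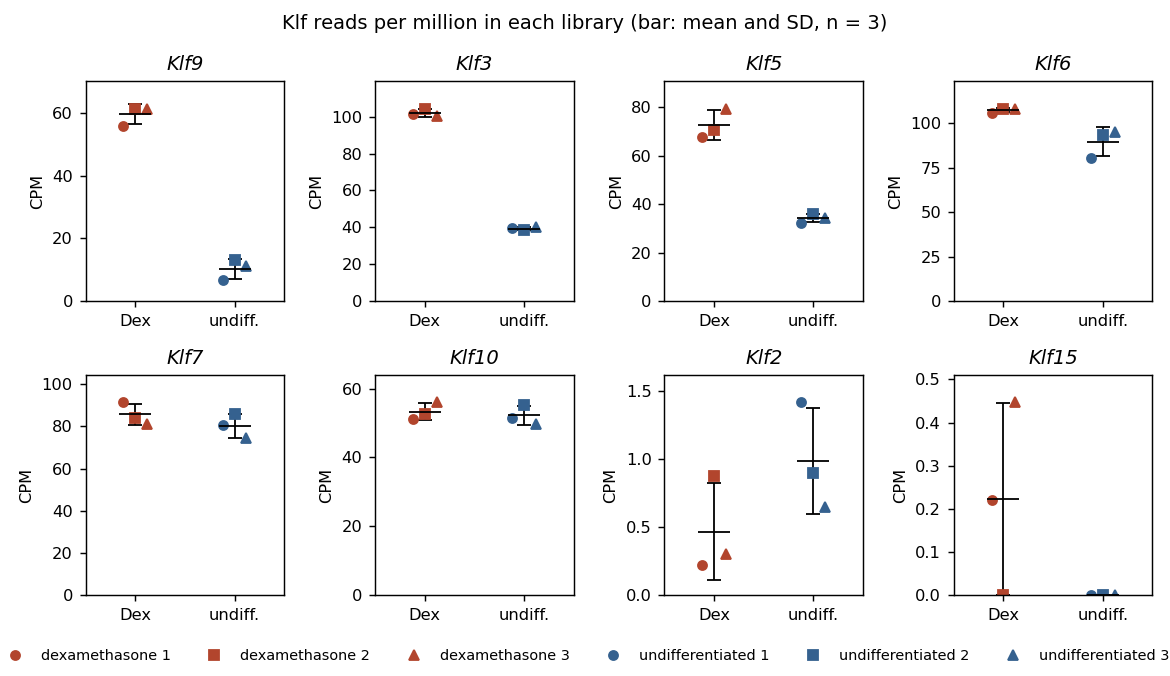
Read level (CPM, y axis, scaled library sizes, from 0) of 8 members in each library, dexamethasone (Dex) left and undifferentiated right, with the mean and SD of 3 libraries as bars and a symbol per replicate. All 3 dexamethasone points lie above all 3 undifferentiated points for Klf9, Klf3, Klf5 and Klf6, and the groups overlap for Klf7, Klf10, Klf2 and Klf15.

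Klf3 represents the CtBP-binding subgroup among the members. It is a repressor first described in erythroid cells of mice (ENSMUSG00000029178, plus strand of chromosome 5, 64803388 to 64832901 in GRCm38). It had 101, 104 and 100.1 CPM in the dexamethasone libraries, against 39.6, 38.4 and 40.3 CPM in the undifferentiated libraries. The groups lay far apart and each varied little, with means of 102 ± 2.17 CPM and 39.4 ± 0.959 CPM (SD, n = 3 each). The log2 fold change was 1.37 ± 0.066 (SE), a 2.59-fold rise with an edgeR adjusted p of 9.28e-17. Of its relatives outside the members, Klf8, another CtBP-binding repressor, averaged 4.20 ± 0.651 CPM in dexamethasone and 3.28 ± 0.811 CPM in undifferentiated cells (SD, n = 3 each) with a log2 fold change of 0.39 ± 0.243 (SE) that did not pass (edgeR adjusted p = 0.143). Klf12 had no read in any library.

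Among the activators, Klf5, known for driving proliferation in intestinal crypts (ENSMUSG00000005148, plus strand of chromosome 14, 99298691 to 99315036), had 67.8, 70.5 and 79.5 CPM in the dexamethasone libraries, against 32.5, 35.9 and 34.3 CPM in the undifferentiated libraries. All dexamethasone libraries lay above all undifferentiated ones, and dexamethasone replicate 3 was the highest. Klf5 rose 2.11-fold (log2 fold change 1.08 ± 0.078 SE, edgeR adjusted p = 8.12e-13). Klf6, which can induce the cell cycle inhibitor gene Cdkn1a (ENSMUSG00000000078, plus strand of chromosome 13, 5861482 to 5870394), had 106, 108 and 108 CPM against 80.4, 93.4 and 95.0 CPM in the undifferentiated libraries. The groups did not overlap, but the gap between the lowest dexamethasone and the highest undifferentiated library was smaller than the range of the undifferentiated libraries. Its rise was 1.20-fold (log2 fold change 0.26 ± 0.063 SE, edgeR adjusted p = 0.000563), and a test against a fold of 1.5 did not call it (adjusted p = 1).

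Klf7, the close paralog of Klf6 needed for axon growth of sensory neurons in mice (ENSMUSG00000025959, minus strand of chromosome 1, 64029447 to 64122282), had 91.3, 84.2 and 81.3 CPM in the dexamethasone libraries, against 80.4, 85.9 and 74.3 CPM in the undifferentiated libraries. The groups overlapped, and the log2 fold change of 0.09 ± 0.066 (SE) did not pass (edgeR adjusted p = 0.202). The answer depended on the scaling: with library totals alone its log2 fold change was 0.22 (edgeR adjusted p = 0.00433) and with upper quartile factors 0.19 (edgeR adjusted p = 0.0095), while the same scalings moved the median of all genes to 0.14 and 0.12. Klf2, which keeps endothelial cells and T cells quiescent (ENSMUSG00000055148, plus strand of chromosome 8, 72319033 to 72321656), had only 2, 8 and 2 reads in the dexamethasone libraries, against 10, 7 and 4 in the undifferentiated libraries. The groups overlapped, the ratio of scaled reads was 0.483 with an exact 95% binomial interval of 0.217 to 1.03, and an exact two-sided permutation test over libraries gave p = 0.2, where 3 against 3 cannot go under 0.1. Klf4, the pluripotency and epithelial factor (ENSMUSG00000003032, minus strand of chromosome 4, 55527143 to 55532466), had no read in any library. A total of 3 reads over a group would be 0.120 CPM in dexamethasone and 0.142 CPM in undifferentiated cells, which are the limits that a count of 0 allows. Intervals and limits of this kind cover counting error only.

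The Sin3-binding members differed most among themselves. Klf9 (ENSMUSG00000033863, plus strand of chromosome 19, 23141226 to 23168134) had 55.8, 61.4 and 61.4 CPM in the dexamethasone libraries, against 6.78, 13.0 and 11.4 CPM in the undifferentiated libraries. The undifferentiated libraries spread over almost 2-fold, with the first the lowest at 48 reads, yet all lay far below the dexamethasone libraries. Klf9 averaged 59.5 ± 3.21 CPM in dexamethasone and 10.4 ± 3.22 CPM in undifferentiated cells (SD, n = 3 each), a 5.69-fold rise (log2 fold change 2.51 ± 0.122 SE, edgeR adjusted p = 1.31e-16) that exceeded the log2 fold change of 95.9% of tested genes. Klf10, first known as an early gene of the TGF-beta response (ENSMUSG00000037465, minus strand of chromosome 15, 38291463 to 38300706), had 51.3, 52.5 and 56.0 CPM against 51.6, 55.3 and 49.8 CPM in the undifferentiated libraries. The groups overlapped and the log2 fold change of 0.02 ± 0.072 (SE) did not pass (edgeR adjusted p = 0.803). Klf13, which activates the chemokine gene Ccl5 in T cells (ENSMUSG00000052040, minus strand of chromosome 7, 63886351 to 63938915), had no read in any library, as had Ccl5 itself.

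The 2 tested Sin3-binding genes outside the members moved in opposite directions. Klf11, the near relative of Klf10 that is also tied to TGF-beta (ENSMUSG00000020653), had 41.3, 43.3 and 40.2 CPM in the dexamethasone libraries, against 7.91, 8.79 and 7.79 CPM in the undifferentiated libraries. It rose 5.07-fold (log2 fold change 2.34 ± 0.108 SE, edgeR adjusted p = 3.65e-17). Klf16 (ENSMUSG00000035397) had 48.5, 49.9 and 46.8 CPM against 69.0, 67.4 and 59.1 CPM in the undifferentiated libraries and fell 1.35-fold (log2 fold change -0.43 ± 0.072 SE, edgeR adjusted p = 5.56e-06), a call not made against a fold of 1.5. Klf14 had no read. Klf15, which turns on amino acid breakdown in muscle and liver under glucocorticoids (ENSMUSG00000030087, plus strand of chromosome 6, 90462576 to 90475238), had 2, 0 and 3 reads in the dexamethasone libraries and none in the undifferentiated libraries. The groups overlapped at 0, and Klf15 was too low to test. Klf1, the erythroid member, had 10 and 7 reads over dexamethasone and undifferentiated libraries, and Klf17 had none.

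Reads of each tested member per read of Klf10 within the same library do not depend on how libraries are scaled, a comparison chosen after the values were seen because the absence of Klf13 reads left no ratio of Klf9 to Klf13. Klf10 itself had a fitted log2 fold change of only 0.02, so these ratios largely repeat the fitted folds and are not separate evidence. Klf9 had 1.09, 1.17 and 1.10 reads per Klf10 read in the dexamethasone libraries, against 0.132, 0.235 and 0.228 in the undifferentiated libraries. Klf3 averaged 1.92 ± 0.112 reads per Klf10 read in dexamethasone and 0.756 ± 0.058 in undifferentiated cells, and Klf5 averaged 1.36 ± 0.052 and 0.656 ± 0.029 (SD, n = 3 each). The groups did not overlap for these 3 genes or for Klf6, which had 2.02 ± 0.073 and 1.72 ± 0.175 reads per Klf10 read in dexamethasone and undifferentiated cells (SD, n = 3 each). For Klf6 the gap was narrow, from 1.93 in dexamethasone replicate 3 to 1.91 in undifferentiated replicate 3. The groups overlapped for Klf7, with 1.61 ± 0.165 and 1.53 ± 0.037 in the same order of groups (SD, n = 3 each). How many of all tested genes separate on this ratio was not counted. By CPM, all dexamethasone libraries lay above in 41.0% of tested genes.

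Levels between genes were compared as TPM, which divides reads by the exon length of the gene. Klf6 was the most abundant member in all 6 libraries, at 83.5 ± 1.99 TPM in dexamethasone and 61.9 ± 5.91 TPM in undifferentiated cells (SD, n = 3 each). In dexamethasone cells it was followed by Klf5 at 47.8 ± 4.44, Klf10 at 43.6 ± 2.39, Klf9 at 42.3 ± 2.77, Klf7 at 36.0 ± 1.76 and Klf3 at 31.0 ± 0.828 TPM (SD, n = 3). Klf5 had rank 2 within each of these 3 libraries, although its values overlapped those of Klf10 across libraries, and Klf10 and Klf9 exchanged ranks between libraries. In undifferentiated cells the order was Klf6, Klf10 at 37.9 ± 2.40, Klf7 at 29.9 ± 2.40, Klf5 at 20.0 ± 1.21, Klf3 at 10.6 ± 0.176, Klf9 at 6.55 ± 2.08 and Klf2 at 1.61 ± 0.630 TPM (SD, n = 3), with no overlap between neighbours. Klf9 was thus rank 6 in every undifferentiated library and ranked 4, 3 and 4 in the dexamethasone libraries, and Klf10 was rank 2 in every undifferentiated library.

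**Figure D2:**
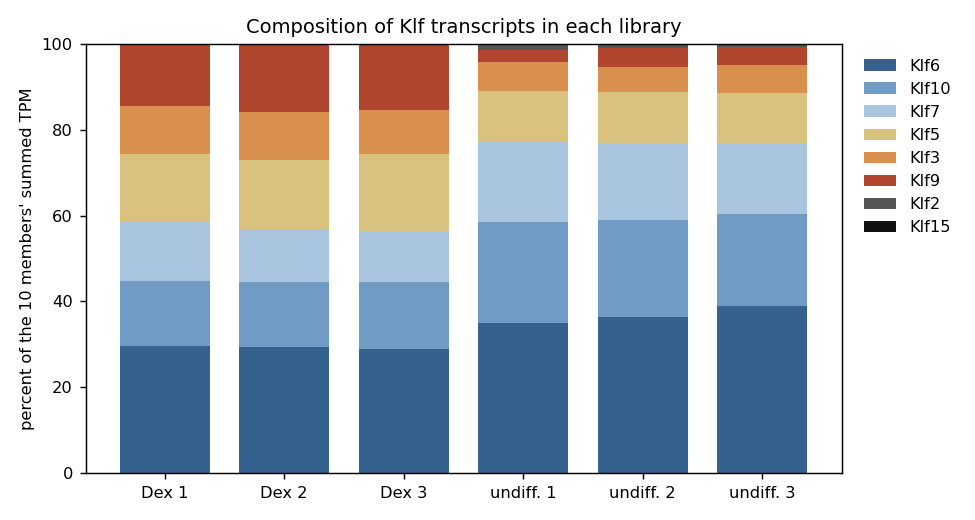
Share of each member in the summed TPM of the 10 members (y axis, percent) in each library, dexamethasone (Dex) left and undifferentiated right; each color is a gene, and Klf4 and Klf13 have no share. Klf9 takes 14.2% to 15.3% in dexamethasone libraries and 2.68% to 4.61% in undifferentiated libraries, while Klf6 is the widest band in all 6.

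The summed TPM of the 10 members was 275, 288 and 294 in the dexamethasone libraries, against 158, 180 and 168 in the undifferentiated libraries. Klf9 took 14.8% ± 0.525 of that sum in dexamethasone and 3.85% ± 1.02 in undifferentiated cells, and Klf10 took 15.3% ± 0.377 and 22.5% ± 1.03 (SD, n = 3 each). Klf6 and Klf7, the genes known to promote neurite growth, together had 119, 120 and 119 TPM in the dexamethasone libraries, against 84.8, 97.7 and 92.9 TPM in the undifferentiated libraries. Klf9, the detected gene of the pair known to hold it back, made the ratio of the first pair to the second 3.05, 2.74 and 2.72 in the dexamethasone libraries, against 20.0, 11.8 and 13.0 in the undifferentiated libraries. TPM values were not adjusted by the scaling factors used for CPM and for the fits. Between groups they rose even for members that were not called. Klf10 averaged 43.6 TPM in dexamethasone and 37.9 TPM in undifferentiated cells, and Klf7 36.0 and 29.9 TPM. A difference in summed TPM between groups is therefore not comparable with the fitted fold changes. These sums are descriptions over chosen genes and were not tested.

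The log2 values of Klf9, centred over the 6 libraries, were nearest by Euclidean distance to those of Snx33, Dagla and Vwa5a among 10715 other tested genes with a mean of at least 5 CPM, at distances of 0.23, 0.29 and 0.34. Snx33 averaged 27.9 ± 1.35 CPM in dexamethasone and 5.44 ± 1.80 CPM in undifferentiated cells, Dagla 56.5 ± 1.85 and 10.6 ± 2.42 CPM, and Vwa5a 10.1 ± 1.06 and 1.65 ± 0.469 CPM (SD, n = 3 each). The likeness rests on 6 libraries in 2 groups. Klf15 had too few reads for such a search.

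The Sp proteins share the 3 fingers and many of the binding sequences of the Klf family. Of 9 Sp genes 7 were tested, 2 were higher and 3 lower in dexamethasone cells, their median log2 fold change was -0.09, and Sp5 and Sp8 had no read. Among all tested genes 40.3% were higher and 38.6% lower. Sp1, the broadly expressed activator of GC-box promoters, averaged 92.1 ± 0.797 CPM in dexamethasone and 147 ± 6.61 CPM in undifferentiated cells (SD, n = 3 each; log2 fold change -0.68 ± 0.056 SE, edgeR adjusted p = 1.33e-11). Sp2 fell 1.90-fold and Sp3 1.18-fold, the second a call lost with library totals alone (log2 fold change -0.12, edgeR adjusted p = 0.062). Sp6 rose 1.95-fold. Sp7, the osteoblast factor osterix, had 35, 33 and 26 reads in the dexamethasone libraries, against 1, 0 and 2 reads in the undifferentiated libraries, a ratio of scaled reads of 26.5 with an exact 95% binomial interval of 8.80 to 131. The fitted log2 fold change of Sp7, 4.58, was 3.96 without undifferentiated replicate 2 and 5.52 without undifferentiated replicate 3. Sp4 had 11.8 ± 2.34 and 12.7 ± 0.631 CPM and Sp9 had 4.53 ± 0.139 and 3.86 ± 0.533 CPM in dexamethasone and undifferentiated cells (SD, n = 3 each), and neither was called (log2 fold changes -0.09 ± 0.146 and 0.22 ± 0.218 SE, edgeR adjusted p = 0.594 and 0.353).

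**Figure D3:**
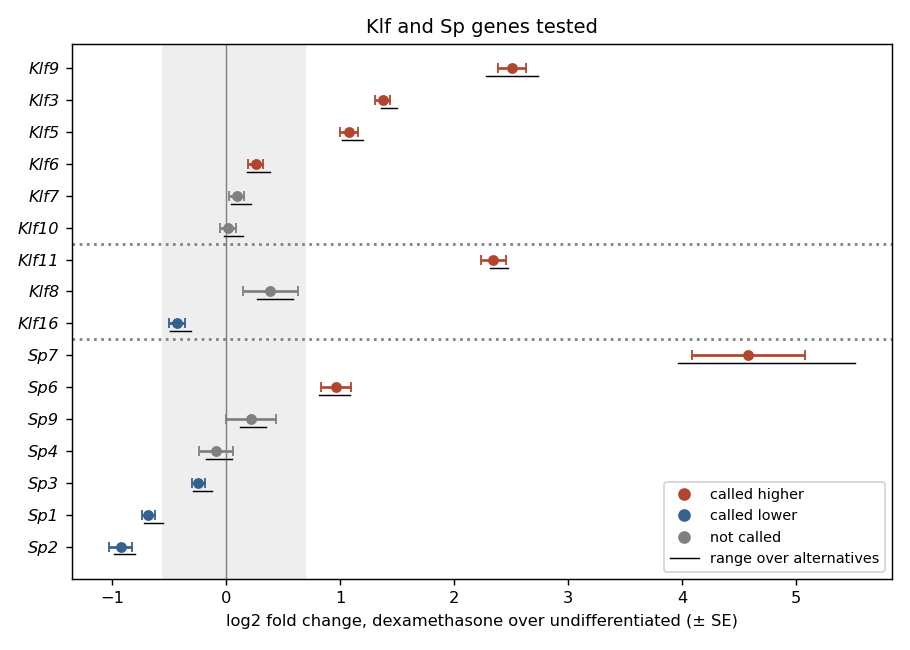
Log2 fold change of dexamethasone over undifferentiated cells (x axis) with its standard error for the 6 tested members, 3 other Klf genes and 7 Sp genes, split by dotted lines and coloured by the edgeR call; the black line under each point spans 16 alternative analyses and the grey band spans the quartiles of all tested genes. Klf9, Klf11 and Sp7 lie furthest right, and Sp2 at -0.92 furthest left.

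The genes for the partners of the Klf proteins were mostly lower in dexamethasone cells. Of 15 tested cofactor genes 13 were lower and 0 higher, also 0 at an unadjusted p under 0.05, with DESeq2 and with limma voom, against 38.6% lower among all tested genes. With upper quartile factors 11 cofactor genes were called lower, and with library totals alone 10. Over all tested genes these scalings called 4334 and 4207 lower, against 4891 in the main fit. All 3 CtBP-side genes were lower, Ctbp1 by 1.68-fold and Ctbp2 by 1.77-fold. Ctbp1 averaged 209 ± 12.0 CPM in dexamethasone and 351 ± 20.5 CPM in undifferentiated cells (SD, n = 3 each; edgeR adjusted p = 9.49e-13). Of 8 genes of the Sin3 complex 7 were lower, with the deacetylase gene Hdac1 1.87-fold and the histone-binding gene Rbbp7 1.80-fold lower. Sin3a itself was only 1.10-fold lower (edgeR adjusted p = 0.0423). Sin3b had 16.3 ± 1.44 and 17.0 ± 0.478 CPM in dexamethasone and undifferentiated cells and was not called (SD, n = 3 each; edgeR adjusted p = 0.558). Of 4 acetyltransferase genes 3 were lower, Kat2a by 1.81-fold and Crebbp with a log2 fold change of -0.32. The median log2 fold changes of these 3 lists were -0.75, -0.79 and -0.25, against 0.017 over all tested genes.

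Genes that act on Klf levels gave mixed results. Of 6 tested ubiquitin ligase genes reported to act on Klf proteins 3 were higher, Btrc by 2.55-fold and Smurf1 by 1.35-fold, none was lower, and the ligases Wwp1 and Fbxw7 were not called; among all tested genes 40.3% were higher and 38.6% lower. Of the kinases and Mef2 factors that induce Klf2 and Klf4, Mef2a was 1.88-fold and Mef2d 1.31-fold higher, and the kinase gene Mapk7 was 1.22-fold lower. The Mapk7 call was lost with library totals alone and with upper quartile factors (edgeR adjusted p = 0.138 and 0.0803). It was also lost without dexamethasone replicate 2 or undifferentiated replicate 1 (edgeR adjusted p = 0.0789 and 0.0644). In the TGF-beta pathway, which induces Klf10 and Klf11, Smad3 was 1.27-fold higher while Smad4 and the receptor gene Tgfbr1 were 1.17-fold and 1.15-fold lower. With library totals alone Smad4 and Tgfbr1 were not called (edgeR adjusted p = 0.126 and 0.222). Nor were they with upper quartile factors (edgeR adjusted p = 0.0594 and 0.111). Smad7, the feedback inhibitor that Klf10 is known to repress, was 4.42-fold lower. Of the receptors and Foxo factors tested, Foxo3 was 3.96-fold and the thyroid hormone receptor gene Thra, whose ligand induces Klf9, 2.68-fold higher. The glucocorticoid receptor gene Nr3c1 was 1.32-fold lower. Foxo1 had 17, 12 and 6 reads in the dexamethasone libraries, against 2, 4 and 3 in the undifferentiated libraries. It did not pass the filter on low counts and was not tested. Mef2c, Thrb, Tgfbr2 and Fbxo32 had too few reads or none.

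Of 23 tested genes reported elsewhere as targets or partners of Klf proteins 12 were higher and 10 lower, against 40.3% and 38.6% of all tested genes. In the cell cycle list 1 of 7 was higher and 5 lower: Cdkn1a, the p21 gene, averaged 83.9 ± 6.83 CPM in dexamethasone and 21.5 ± 1.38 CPM in undifferentiated cells (SD, n = 3 each), and the cyclin gene Ccnb1 and the phosphatase gene Cdc25b were 25.5-fold and 3.15-fold lower. All 3 tested neurite genes were higher. L1cam, an axonal adhesion molecule, was 2.07-fold higher. Of the 4 tested metabolic targets of Klf15 and its relatives 3 were higher, Acss2 by 4.68-fold and the branched-chain aminotransferase gene Bcat2 by 3.03-fold, and the alanine aminotransferase gene Gpt was 1.76-fold lower; Prodh and Aass had no read.

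Of 3 tested vascular targets 2 were higher and 1 lower, against 40.3% and 38.6% of all tested genes. Pfkfb3 was 1.34-fold higher, Nos3 had 44 reads in dexamethasone and 10 in undifferentiated libraries, and the E-selectin gene Sele had 1 read against 106 (a 125-fold lower ratio of scaled reads, exact 95% binomial interval 22.0 to 4995). The only dexamethasone read of Sele was in replicate 1, and the fitted log2 fold change, -6.48, was -8.22 without that library, a value against no read and not a bound. That of Nos3, 1.86, ranged with a library left out from 1.52 to 2.49, the latter without undifferentiated replicate 2. S1pr1 and Thbd, targets of Klf2, had no read. In the list of other targets Txnip was 26.5-fold higher, Pdgfa was also higher (log2 fold change 1.14) and Id1 2.82-fold lower beside Smad7. Of the pluripotency partners of Klf4, Myc was 1.12-fold higher and Tbx3 3.10-fold lower, Sox2 had no read, and Pou5f1 had 1 read in dexamethasone and 0 in undifferentiated libraries.

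**Figure D4:**
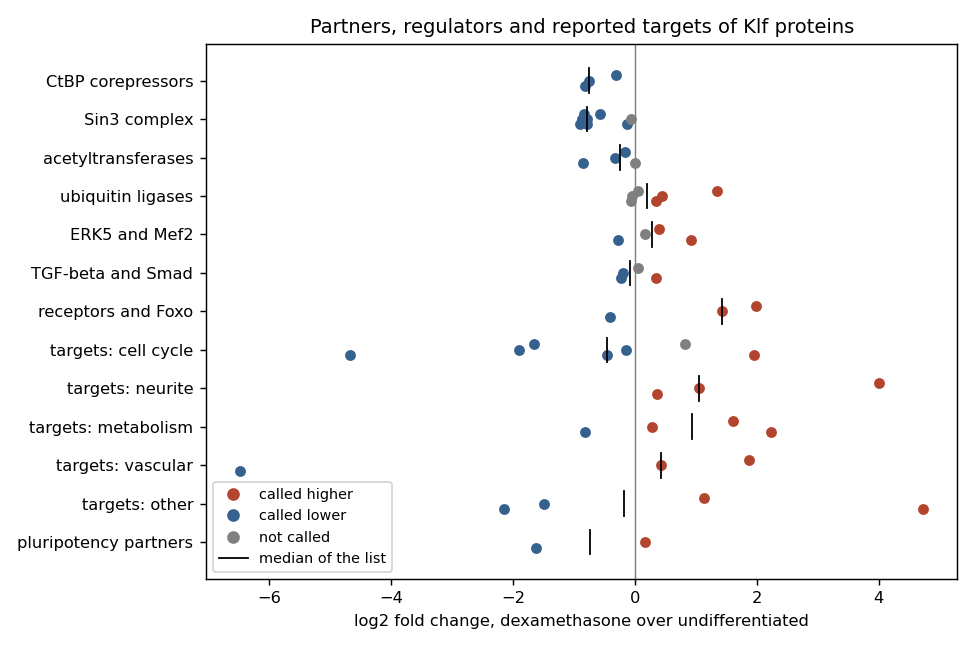
Log2 fold change of dexamethasone over undifferentiated cells (x axis) of each tested gene in 13 lists of partners, regulators and reported targets of Klf proteins, coloured by the edgeR call, with the list's median as a black bar; points are offset vertically for visibility. All called cofactor genes lie left of 0, and the target lists spread to both sides, out to Sele, fitted at -6.48 from 1 read against 106.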

How the data were processed

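Counts of mRNA reads per gene were analysed in 3 dexamethasone and 3 undifferentiated libraries, grouped by sample title. The authors deposited unnormalized counts of reads per gene; per the file headers they came from featureCounts 1.6.4 over exons of Ensembl release 96 genes with strand setting 1, without multi-mapping or multi-overlapping reads. Per the submitters' processing notes, the tools were HISAT2 2.2.0, Trim Galore 0.6.4, Subread 1.6.4, FastQC 0.11.9 and DESeq2, with build GRCm38.p6; roles are not given in the sources used here. Per the labels, mRNA libraries went through amplification of 12 cycles.

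All 55536 identifiers matched GENCODE M21 with the same start and end. Genes passing filterByExpr (minimum count 10, minimum total 15; 12664 genes, 99.8% of reads) were tested with edgeR 4.0.16 in R 4.3.3, using TMM factors and the group as only term, at an adjusted p of 0.05. CPM used TMM-scaled sizes, TPM the exon length in the files. A standard error is the log2 fold change over the square root of F. At these depths 3 reads in a library are 0.327 to 0.487 CPM.

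Members and lists were chosen with earlier results of these data known. Beyond the Klf and Sp genes, the text names for each list up to 2 genes called in each direction, by adjusted p, among those averaging 1 CPM or more; others were chosen after their values were seen. A gene that the rule names is not reported here. Alternatives were RLE, upper quartile and no scaling factors, no filter, a filter of 1 CPM in 3 libraries, DESeq2 1.42.0, limma 3.58.1 voom, each library left out, the replicate number as a block, an adjusted p of 0.01 and a test against a fold of 1.5. The ratio to Klf10 was added after seeing the data.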

Additional observations from a re-analysis of the deposited data

How the results depend on the processing

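Across 16 alternatives the count of members called higher was 4 in 13, 5 with upper quartile factors and library totals alone, which added Klf7 (log2 fold change 0.19 and 0.22), and 3 in the test against a fold of 1.5, which is stricter by construction and did not call Klf6 (log2 fold change 0.26). Over all tested genes, upper quartile factors and library totals alone called 5692 and 5802 higher, against 5106 in the main fit. They called 4334 and 4207 lower, against 4891. The count of members called lower was 0 in all 16. Klf9 stayed called, with log2 fold changes of 2.28 (without undifferentiated replicate 1) to 2.73 (without undifferentiated replicate 2). Klf10 was never called and its log2 fold change with a library left out ranged from -0.013 (without undifferentiated replicate 3) to 0.067, and was -0.0097 without dexamethasone replicate 3. Sp4, not called either, was at 0.016 with upper quartile factors, 0.038 with library totals alone, and between -0.17 and 0.050 with a library left out. The test against a fold of 1.5 called 0 other Klf genes lower, 8 cofactor genes lower, and 4 higher and 0 lower among ligase and inducer genes; over all genes it called 2853 higher and 2316 lower, against 5106 and 4891. Only 1 ligase or inducer gene was lower with upper quartile factors and 1 with library totals alone. The replicate numbers did not pair the libraries: deviations of same-numbered libraries correlated at -0.0947, 0.0357 and -0.071, and not every library correlated best with its own number. With the replicate number as a block 5017 genes were higher and 4803 lower, Klf9 had a log2 fold change of 2.52, and 4 members were higher. The planned ratio of Klf9 to Klf13 could not be formed, since Klf13 had no read, so its alternatives were not run. Klf2 and Klf15 had too few reads for the test and Klf4 and Klf13 had none, so these 4 members were not tested.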

Other observations

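Klf13, E030018B13Rik, which overlaps it on the opposite strand, and the protein-coding genes Otud7a and Trpm1 on either side on chromosome 7 all had 0 reads in all 6 libraries. From counts alone, a region missing from the line and genes that are not transcribed cannot be told apart. Beyond them, Chrna7 had 43 reads in dexamethasone and 217 in undifferentiated libraries, and Mtmr10 had 157 and 179. Few genes that overlap members had reads: Gm20033, opposite Klf3, had 18 reads in dexamethasone and 9 in undifferentiated libraries, C230096K16Rik, on the strand of Klf3, had 2 and 2, and Gm13748, opposite Klf7, had 1 and 0.

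Some genes of the lists had reads in dexamethasone libraries only. Cdh5, an endothelial cadherin gene, had 33 reads in dexamethasone and 0 in undifferentiated libraries, and Nanog had 12 and 0. These genes did not pass the filter on low counts and were not tested.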
